A study of Mus musculus with 20 samples.

Results

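The 6 libraries described here came from cones sorted out of the retinas of conditional Dgcr8 knockout (KO) mice at postnatal days 30, 40 and 50 (P30, P40 and P50), 2 libraries at each age, out of 20 libraries in the series. They were chosen by genotype and age alone, and no measured value entered the choice. The mice were on a C57BL/6 background and carried D4-cre, a Cre driver that is specific to cones and acts after birth, a conditional Dgcr8 allele, and the reporter Ai9 (tdTomato), which marks the cells in which Cre has acted. The wild-type (WT) libraries at the same ages, also 2 at each, are labelled D4-cre with Ai9, although the protocol also names animals with D4-cre alone as controls. Both genotypes therefore carry the Cre driver. The labels give no pairing of animals and do not say whether the 2 libraries of an age came from separate animals, so the p-values rest on how far the 2 libraries of an age differed, a spread that may be technical. Of 23077 gene symbols in the count files, the 10366 with a mean of at least 5 CPM over the 6 KO libraries were tested. CPM is the count of a gene per M counts of its library, M standing for mega.

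Cones are the photoreceptors of daylight and colour vision. In their outer segments a light-activated opsin drives the G protein transducin, which turns on a phosphodiesterase, lowers cyclic GMP and closes the cyclic nucleotide gated channel. Dgcr8 protein binds primary microRNA transcripts and lets the nuclease Drosha cut out the hairpins. Dicer1 trims these to mature microRNAs, which guide Argonaute proteins to sites in the 3 prime untranslated regions of messenger RNAs, mostly through a short seed near their 5 prime end. Photoreceptors are known for high levels of the microRNAs of the miR-183 cluster.

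The targeted gene had no called trend within the KO course. Dgcr8 (GRCm38, chr16:18253948-18289246, minus strand) stood at 49.2 and 51.9 CPM at P30, 48.4 and 53.8 at P40, and 48 and 52.2 at P50, a difference between P50 and P30 of −0.01 (SE 0.13, adjusted p = 0.974) on the log2 scale. In the joint scaling with the WT libraries, WT levels were 105 and 91.3 CPM at P30, 85.5 and 97.9 at P40, and 82.6 and 86.5 at P50, and every KO library lay below every WT library. The files give 1 count for the whole gene, so reads from outside the deleted part can be included. The KO libraries held 5.11 to 9.17 M counts and the WT libraries of the same ages 2.24 to 4.34 M. Cone markers were abundant in all 12. Their summed level (14 genes) fell in KO from 23430 to 23560 CPM at P30 to 20900 to 21130 at P40 and 18210 to 18330 at P50. In WT it lay between 25060 and 25370 CPM at P30 and between 23090 and 23370 at the later ages. In bulk RNA, fewer cone cells in a sort and less RNA per cone cannot be told apart.

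Transcripts of other cells were present as well. The 15 rod markers, all of them tested and none at 0, summed to 14140 to 14660 CPM in KO at P30, 13380 to 13610 at P40 and 12410 to 12530 at P50, while in WT the sum rose from between 12930 and 13350 to between 19180 and 19200. The KO sum does not stand for each of its genes. In the test below, 5 of the 15 were called lower between P30 and P50 and 2 higher, beside 7.51% and 8.43% of all genes. The sum over 16 Mueller glia markers went from 1075 to 1094 CPM at P30 to 1249 to 1297 at P50 in KO, and that over 14 bipolar cell markers from 763.2 to 824.8 to between 550.9 and 577.5. Markers of pigment epithelium, microglia, vessels, astrocytes and red cells each summed to at most 88.8 CPM in the 6 libraries, and of the 4 red cell genes 2 were at 0 throughout. The lens, small RNA and sex-linked transcripts also differed between ages. The sum over 18 lens markers was 292 to 311 CPM in the P40 libraries and 5.16 to 7.17 in the other 4. The 119 small structured RNAs in the files (small nucleolar and small nuclear RNAs, Rpph1 and Rmrp) summed to 7889 and 10672 CPM at P30, 5407 and 5676 at P40, and 7824 and 8015 at P50. Xist, the long noncoding RNA of the inactive X chromosome in females, stood at 878 and 888 CPM at P30, 601 and 586 at P40, and 431 and 459 at P50, and the Y-linked Ddx3y at 88.9 and 86 CPM at P30, 159 and 184 at P40, and 245 and 228 at P50. Both sexes' transcripts were thus in every KO library, in proportions that changed with age. The parts of rod RNA, lens RNA, small RNAs and sex in the results below were not tested beyond the values given beside them.

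**Figure D1:**
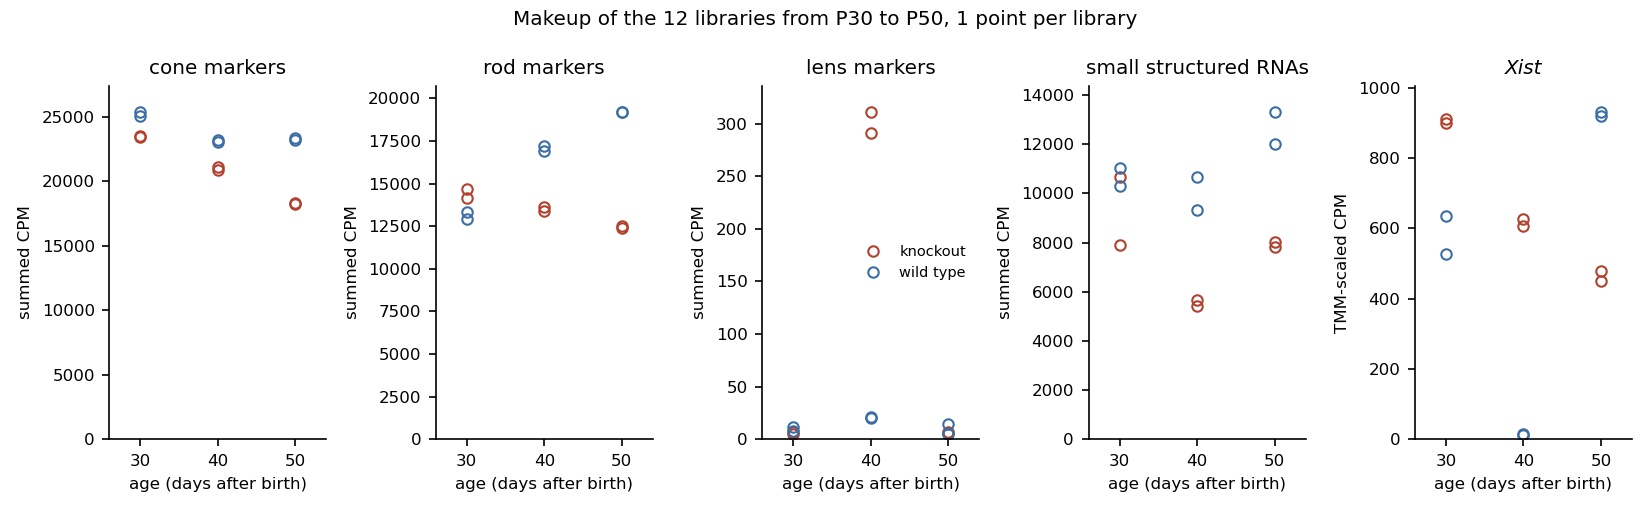
Summed level of the cone, rod, lens and small structured RNA lists (CPM of the library total) and level of Xist (CPM after joint TMM scaling) against age in days, 1 point per library, KO in red and WT in blue. The cone marker sum falls with age in KO, the rod marker sum rises in WT and not in KO, the lens sum is at 292 to 311 CPM in the KO libraries at P40, and Xist is near 13 CPM in the WT libraries at P40.

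Between P30 and P50, most called members of the phototransduction, synapse, glycolysis and oxidative phosphorylation lists fell in KO cones, and most called members of the fatty acid oxidation, cholesterol and microRNA pathway lists rose. In edgeR's quasi-likelihood test, 874 genes (8.43% of those tested) were higher at P50 and 779 (7.51%) lower at an adjusted p below 0.05, and the median over all genes was −0.004 on the log2 scale. Changes of at least 2-fold were called for 96 higher and 45 lower genes. For 708 of the 874 (81.0%) and 595 of the 779 (76.4%), the P40 mean lay between the other ages and the P30 and P50 libraries did not overlap. Without the second P50 library the counts were 560 and 493, without any filter on low levels 725 and 1026, and with all 20 libraries fitted together 400 and 254.

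Stom had the smallest p of the genes that rose. It encodes stomatin, a membrane protein that regulates ion channels (chr2:35313986-35336976, minus strand). Its levels were 132 and 125 CPM at P30, 192 and 196 at P40, and 384 and 394 at P50, with no overlap between ages, and the difference was 1.60 (SE 0.066, adjusted p = 1.34e-23) on the log2 scale. In WT the gene stood at 81.7 and 112 CPM at P30, 112 and 108 at P40, and 98 and 101 at P50, with no age trend called (0.04 (adjusted p = 0.871)), and the difference between the trends was 1.58 (adjusted p = 6.78e-09). Jam2, a junctional adhesion molecule, read 244 and 220.5 CPM at P30, 321 and 294 at P40, and 475 and 466 at P50 (1.02 (SE 0.06, adjusted p = 6.49e-18)). Golgb1 encodes the Golgi tether giantin and Hook3 a linker of dynein to cargo. Golgb1 read 503 and 556 CPM at P30, 701 and 701 at P40, and 777 and 795 at P50 (0.57 (SE 0.048, adjusted p = 8.73e-13)) and Hook3 344 and 353 CPM at P30, 408 and 426 at P40, and 509.8 and 551 at P50 (0.61 (SE 0.053, adjusted p = 3.81e-12)). For Golgb1 and Jam2 the trend exceeded that of WT (0.71 (adjusted p = 4.54e-06) and 0.86 (adjusted p = 7.35e-05)). For Hook3 the difference was 0.25 (adjusted p = 0.13), beside a WT trend of 0.38. Son, whose product is a scaffold of nuclear speckles, rose, with 1575 and 1567 CPM at P30, 1983 and 1984 at P40, and 2068 and 2082 at P50 (0.40 (SE 0.034, adjusted p = 9.91e-13)), and most of that lay before P40 (0.34, against 0.07 after it).

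Olfm1 fell furthest among the 12 lower genes of smallest p. It encodes olfactomedin 1, a secreted glycoprotein of neurons (chr2:28192992-28230736, plus strand). It stood at 392 and 368 CPM at P30, 240.5 and 217 at P40, and 91.9 and 98.2 at P50, a change of −2.00 (SE 0.072, adjusted p = 1.06e-25), and each age lay wholly below the one before. WT levels were 503 and 574 CPM at P30, 538 and 466 at P40, and 444 and 406 at P50 (−0.34 (adjusted p = 0.00654)), and the difference between the trends was −1.63 (adjusted p = 2.64e-11). Kcne2 encodes an accessory subunit of potassium channels and belongs to the cone marker list (chr16:92292389-92298129, plus strand). Its values were 1629 and 1678 CPM at P30, 968 and 942 at P40, and 734 and 726 at P50 (−1.18 (SE 0.04, adjusted p = 1.87e-26)), with a change of −0.79 before P40 and −0.39 after it. Fam19a3 (now Tafa3), a secreted chemokine-like protein, stood at 833 and 848 CPM at P30, 741 and 702 at P40, and 486 and 483 at P50 (−0.79 (SE 0.046, adjusted p = 4.55e-18)). Here WT fell too (−0.57 (adjusted p = 1.97e-08)), and the trends did not differ past the threshold (−0.21 (adjusted p = 0.0875)). Lrtm1, a leucine-rich repeat membrane protein, changed by −1.04 (SE 0.066, adjusted p = 8.71e-17) and Cabp5, a calcium-binding protein of bipolar cells, by −1.15 (SE 0.076, adjusted p = 3.22e-16). All the values of both genes at P50 lay below all those at P40, which lay below those at P30.

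**Figure D2:**
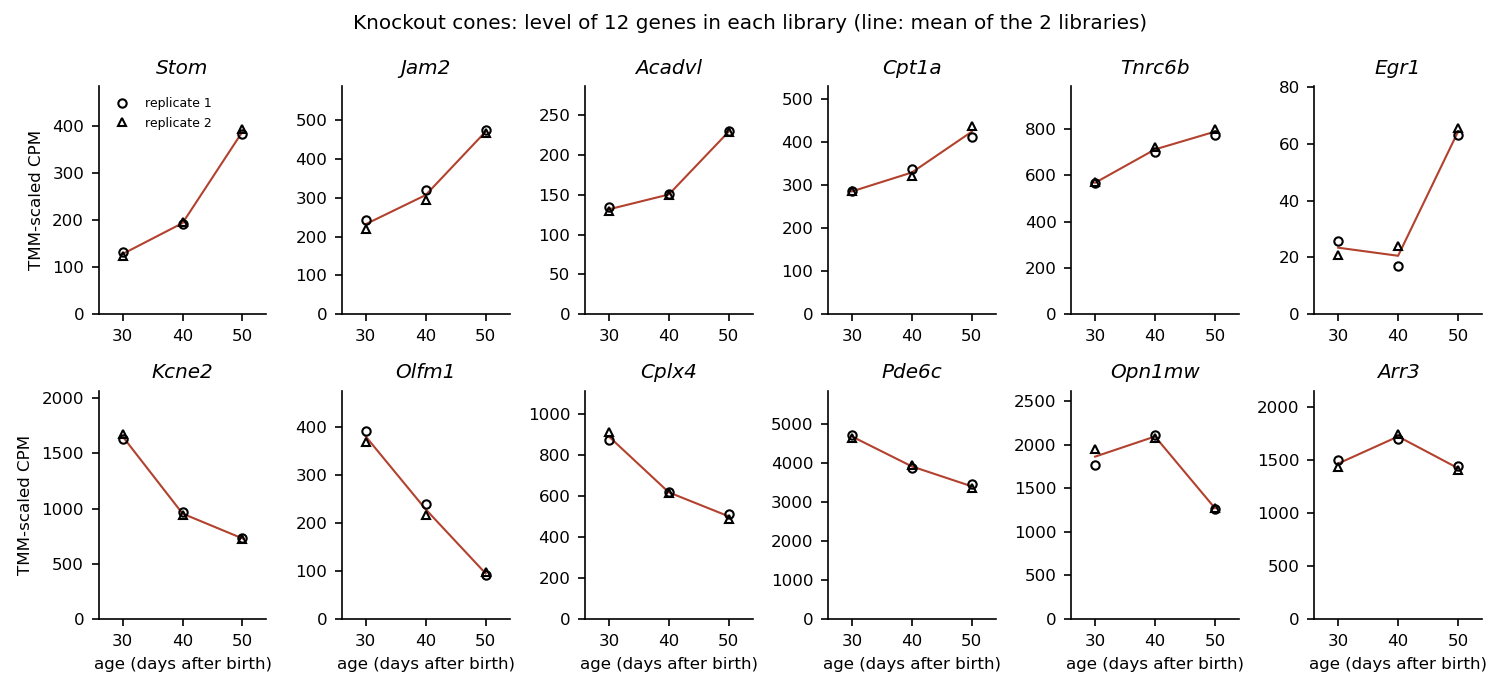
Levels of 12 genes in the KO libraries (TMM-scaled CPM, axes from 0) against age in days, a circle for replicate 1, a triangle for replicate 2 and a line through the age means. Stom climbs from 132 and 125 CPM at P30 to 384 and 394 at P50, Olfm1 drops from 392 and 368 to 91.9 and 98.2, and Opn1mw and Arr3 are highest at P40.

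Cone phototransduction genes went down as a group. Of the 21 in the list, all tested, 16 were called lower at P50 than at P30 and 1 higher, beside 7.51% and 8.43% of all genes. Their median was −0.33 against −0.004 over all genes. With all 20 libraries fitted, 13 were called lower. Both opsins fell. The short-wave opsin Opn1sw (chr6:29376671-29388468, minus strand) read 3754 and 3644 CPM at P30, 2817 and 2791 at P40, and 2711 and 2637 at P50 (−0.47 (SE 0.03, adjusted p = 1.38e-16)), and its loss lay before P40 (−0.40, against −0.07 after). WT fell too, from 5795 and 5633 CPM at P30 to 4543 and 4515 at P50 (−0.34 (adjusted p = 9.32e-08)), and the trends did not differ past the threshold (−0.11 (adjusted p = 0.178)). The middle-wave opsin Opn1mw (chrX:74127464-74150760, plus strand) took another course. It stood at 1769 and 1954 CPM at P30, 2105 and 2079 at P40, and 1264 and 1277 at P50, so that it was highest at P40 and lowest at P50, with 0.17 (adjusted p = 0.00152) over the first step and −0.72 (adjusted p = 2.63e-19) over the second. It lies on the X chromosome, where 349 tested genes had a median trend of −0.02. Of these, 10.3% were called lower and 8.02% higher, beside 7.51% and 8.43% of all genes.

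Downstream of the opsins, the cone transducin subunits Gnat2 (alpha) and Gngt2 (gamma) fell and the beta subunit Gnb3 did not pass the test. Gnat2 read 2682 and 2644 CPM at P30, 2211 and 2257 at P40, and 2156 and 2120 at P50 (−0.32 (SE 0.032, adjusted p = 1.78e-10)). Gngt2 changed by −0.26 (SE 0.041, adjusted p = 5.06e-06) and Gnb3 by −0.07 (SE 0.039, adjusted p = 0.225). Pde6c, the catalytic subunit of the cone phosphodiesterase (chr19:38132781-38183958, plus strand), read 4726 and 4629 CPM at P30, 3875 and 3946 at P40, and 3456 and 3346 at P50 (−0.46 (SE 0.028, adjusted p = 2.18e-17)), each age lying below the one before, while WT stayed at 3855 and 3766 CPM at P30, 3841 and 3862 at P40, and 3840 and 3853 at P50. Its inhibitory subunit Pde6h changed by −0.20 (SE 0.04, adjusted p = 0.000207). Of the channel subunits, Cnga3 fell by 0.51 on the log2 scale (SE 0.052, adjusted p = 3.18e-10) and Cngb3 read 647, 604 and 591 CPM on average (−0.13 (adjusted p = 0.0635)). In the recovery arm, the cyclase activators Guca1a (−0.54 (SE 0.036, adjusted p = 4.42e-16)) and Guca1b (−0.42 (SE 0.094, adjusted p = 0.00114)) fell. So did the kinase Grk1 (−0.34 (SE 0.032, adjusted p = 1.78e-11)), its calcium sensor Rcvrn, recoverin (−0.57 (SE 0.045, adjusted p = 1.46e-13)), and the transducin-quenching complex of Rgs9 (−0.33 (SE 0.027, adjusted p = 4.55e-13)), Gnb5 (−0.36 (SE 0.047, adjusted p = 1.54e-07)) and Rgs9bp (−0.25 (SE 0.044, adjusted p = 4.23e-05)). Guca1a stood at 1919 and 1940 CPM at P30, 1436 and 1483 at P40, and 1330 and 1326 at P50. Of the 2 guanylate cyclases, Gucy2e fell (−0.36 (SE 0.051, adjusted p = 6.24e-07)) and Gucy2f, the 1 member called higher, rose from a mean of 122 to 148 CPM (0.28 (SE 0.082, adjusted p = 0.0136)). Cone arrestin, Arr3 (chrX:100605497-100618493, plus strand), was not called over the whole course (−0.04 (SE 0.037, adjusted p = 0.453)) and was highest at P40, with 1501 and 1432 CPM at P30, 1700 and 1742 at P40, and 1441 and 1403 at P50.

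Between genotypes, the trend of 14 of the 21 genes was lower in KO than in WT and that of 3 higher, beside 4.53% lower and 4.84% higher over all genes, with a median difference of −0.41. WT itself had 7 members called higher and 5 lower over the same ages, beside 5.54% and 4.63% of all genes. The rod marker sum rose in WT from between 12930 and 13350 CPM at P30 to between 19180 and 19200 at P50. In KO it fell. Reads of list members from rods and from cones were not separated, and the part of rod RNA in these differences was not tested. The 3 members with a higher KO trend were Gnb3 (0.31 (adjusted p = 0.00394)), Slc24a2, a sodium, calcium and potassium exchanger (0.30 (adjusted p = 0.0279)), and Arr3 (0.30 (adjusted p = 0.00216)), all of which fell in WT (−0.36, −0.33 and −0.33). These 3 calls depended on the filter. With filterByExpr, a weaker filter on low levels, none of the list was called with a higher KO trend and 17 with a lower one. For Guca1a the KO fall met a WT rise (0.21 (adjusted p = 0.00742)), and likewise for Gnat2 (0.20 (adjusted p = 0.00297)).

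**Figure D3:**
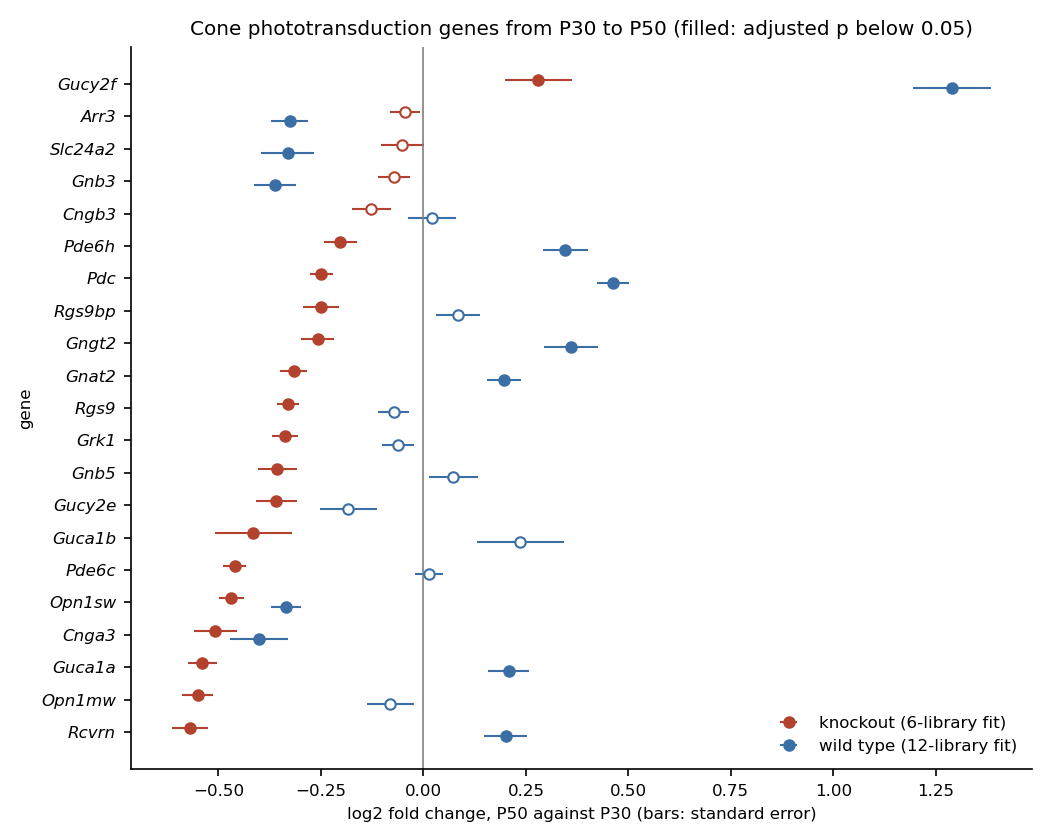
Difference between P50 and P30 (log2, bars are standard errors) of the 21 cone phototransduction genes in KO (red, 6-library fit) and WT (blue, 12-library fit), filled where the adjusted p was below 0.05. In KO, 16 of the 21 are called lower, from Rcvrn at −0.57 to Pde6h at −0.20, beside 7.51% of all genes. In WT 7 are called higher and 5 lower, beside 5.54% and 4.63%.

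The promoters of 3 of these falling genes are shown because they differ in a short motif that the photoreceptor homeodomain factors Crx and Otx2 are known to bind. Each is the 250 bases before the RefSeq start (GRCm38.p6), 5 prime to 3 prime on the gene's strand, at chr3:108092816-108093065 (plus), chr17:47400607-47400856 (minus) and chr6:29380514-29380763 (minus). Capitals mark the motif TAATCC on either strand, which reads GGATTA on the other.
Gnat2: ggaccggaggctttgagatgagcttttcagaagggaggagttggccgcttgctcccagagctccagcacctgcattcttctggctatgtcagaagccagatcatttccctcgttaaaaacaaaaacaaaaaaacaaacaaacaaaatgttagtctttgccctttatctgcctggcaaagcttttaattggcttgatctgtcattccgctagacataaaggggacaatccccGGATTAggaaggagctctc
Guca1a: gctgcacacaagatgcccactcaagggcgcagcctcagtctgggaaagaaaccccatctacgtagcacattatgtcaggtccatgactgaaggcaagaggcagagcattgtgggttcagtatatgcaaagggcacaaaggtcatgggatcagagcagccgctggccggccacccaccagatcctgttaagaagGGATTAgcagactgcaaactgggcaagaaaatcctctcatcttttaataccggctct
Opn1sw: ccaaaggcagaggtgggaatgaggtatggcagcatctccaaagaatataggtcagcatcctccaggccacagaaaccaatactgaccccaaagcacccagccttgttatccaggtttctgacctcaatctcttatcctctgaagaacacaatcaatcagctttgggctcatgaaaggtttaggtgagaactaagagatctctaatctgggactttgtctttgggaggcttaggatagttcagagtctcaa
The motif begins 19 bases before the start of Gnat2 and 57 before that of Guca1a, and these letters are not in the window of Opn1sw. Among genes of the phototransduction list with a RefSeq promoter, 5 of 14 (35.7%) held it. The share was 6.25% of all 32851 promoters, 6.65% of the 8122 tested genes with one, 9.88% of the genes called lower and 5.10% of those called higher. The motif, the windows and the 3 genes were chosen after the values were seen, and a match is a description of the sequence, not of a bound site.

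The outer segment list behaved less evenly. Of its 19 genes, 10 were called lower and 4 higher, beside 7.51% and 8.43% of all genes, with a median of −0.15. The disc rim proteins peripherin, Prph2, and Rom1 both fell. Prph2 stood at 2387 and 2519 CPM at P30, 2049 and 2024 at P40, and 2020 and 1988 at P50 (−0.29 (SE 0.034, adjusted p = 5.48e-09)), and Rom1 dipped at P40, with 569 and 604 CPM at P30, 405 and 418 at P40, and 496 and 499.6 at P50 (−0.24 (SE 0.05, adjusted p = 0.000548)). Aipl1, the chaperone needed to fold phosphodiesterase, changed by −0.29 (SE 0.036, adjusted p = 5.3e-08) and Tulp1, a trafficking protein, by −0.24 (SE 0.043, adjusted p = 4.95e-05). In both genes every P40 and P50 value lay below every P30 value. The 4 that rose were the disc cadherin Cdhr1 (0.25 (SE 0.038, adjusted p = 3.42e-06)), Crb1, a polarity protein (0.30 (SE 0.064, adjusted p = 0.000603)), prominin 1, Prom1 (0.17 (SE 0.039, adjusted p = 0.00115)), and the matrix proteoglycan Impg2 (0.10 (SE 0.035, adjusted p = 0.0437)). Cdhr1 read 1173 and 1173 CPM at P30, 1325 and 1275 at P40, and 1375 and 1410 at P50, whereas WT had a trend of −0.13 (difference 0.40 (adjusted p = 0.000725)). When all 20 libraries were fitted together, 2 of the 19 were called lower and 2 higher, and the calls of Rom1 and Tulp1 were among those lost.

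In the connecting cilium and its transport machinery, 7 of 35 genes were called lower and 1 higher, against 7.51% and 8.43% of all genes, with a median of −0.15. The 7 became 3 with all 20 libraries fitted and 4 without the second P50 library. The lower ones included Arl3, a small GTPase that delivers lipid-modified proteins (−0.44 (SE 0.076, adjusted p = 2.59e-05)), and 4 members of the Bardet-Biedl group, Bbs1, Bbs4, Bbs5 and Ttc8, of which Bbs4 stood at 332 and 331 CPM at P30, 309 and 322 at P40, and 267 and 275 at P50 (−0.29 (SE 0.058, adjusted p = 0.000291)). The single gene that rose was Cep290, a gatekeeper of the ciliary transition zone, with 438 and 404 CPM at P30, 455 and 428 at P40, and 557 and 522 at P50 (0.36 (SE 0.053, adjusted p = 2.23e-06)). Its WT trend was −0.31 (adjusted p = 0.00462), and the difference of the trends was 0.69 (adjusted p = 9.39e-06).

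Among 24 genes of the photoreceptor synapse, 11 were called lower and 4 higher, beside 7.51% and 8.43% of all genes, with a median of −0.12. With all 20 libraries fitted, 6 were called lower and 2 higher. The complexins of ribbon synapses, which clamp and promote vesicle fusion, fell most. Cplx4 read 872 and 911 CPM at P30, 621 and 617 at P40, and 515 and 488 at P50 (−0.83 (SE 0.047, adjusted p = 1.32e-18)) and Cplx3 504 and 509.8 CPM at P30, 398 and 417 at P40, and 342 and 326 at P50 (−0.60 (SE 0.053, adjusted p = 4.42e-12)). For both, every age lay below the one before, and in WT Cplx4 rose (0.27 (adjusted p = 0.00323)). Lrit2, a leucine-rich repeat protein, changed by −0.59 (SE 0.093, adjusted p = 4.57e-06), the vesicular glutamate transporter Slc17a7 −0.38 (SE 0.048, adjusted p = 5.39e-08), the vesicle protein Sv2b −0.28 (SE 0.034, adjusted p = 1.49e-08), and Cabp4, which regulates the synaptic calcium channel, −0.27 (SE 0.066, adjusted p = 0.00304). The 4 that rose were the active zone scaffolds Bsn, bassoon (0.50 (SE 0.15, adjusted p = 0.0146)), and Pclo, piccolo (0.35 (SE 0.059, adjusted p = 2.02e-05)), the vesicle SNARE Vamp2 (0.31 (SE 0.079, adjusted p = 0.00393)) and the calcium channel subunit Cacna2d4 (0.18 (SE 0.044, adjusted p = 0.00325)). Cacna1f, the pore of that channel, had means of 237, 243 and 216 CPM (−0.13 (adjusted p = 0.172)).

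Of 17 photoreceptor transcription factors, 4 were called lower and 2 higher, beside 7.51% and 8.43% of all genes. With all 20 libraries fitted, 2 were called lower and none higher, and 2 were lower without the first P50 library. Thrb, the thyroid hormone receptor that directs middle-wave opsin expression, stood at 808 and 841 CPM at P30, 875 and 895 at P40, and 581 and 593 at P50. It held its level to P40 (0.10 (adjusted p = 0.135)) and then fell by 0.59 on the log2 scale (adjusted p = 4.54e-14), the same order of ages as Opn1mw. Samd7, a Polycomb-associated repressor, read 155 and 159 CPM at P30, 160.2 and 150.3 at P40, and 122 and 112 at P50 (−0.43 (SE 0.081, adjusted p = 0.000114)), with its P50 values below the other 4. Crx, the master regulator of photoreceptor genes, had means of 1400, 1447 and 1404 CPM (0.00 (adjusted p = 0.952)). Neurod1 (0.16 (SE 0.053, adjusted p = 0.0371)) and Mef2c (0.30 (SE 0.1, adjusted p = 0.042)) rose. The rod factors Nrl and Nr2e3 were not called in KO (−0.14 and 0.01) but rose in WT (0.61 and 0.84).

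**Figure D4:**
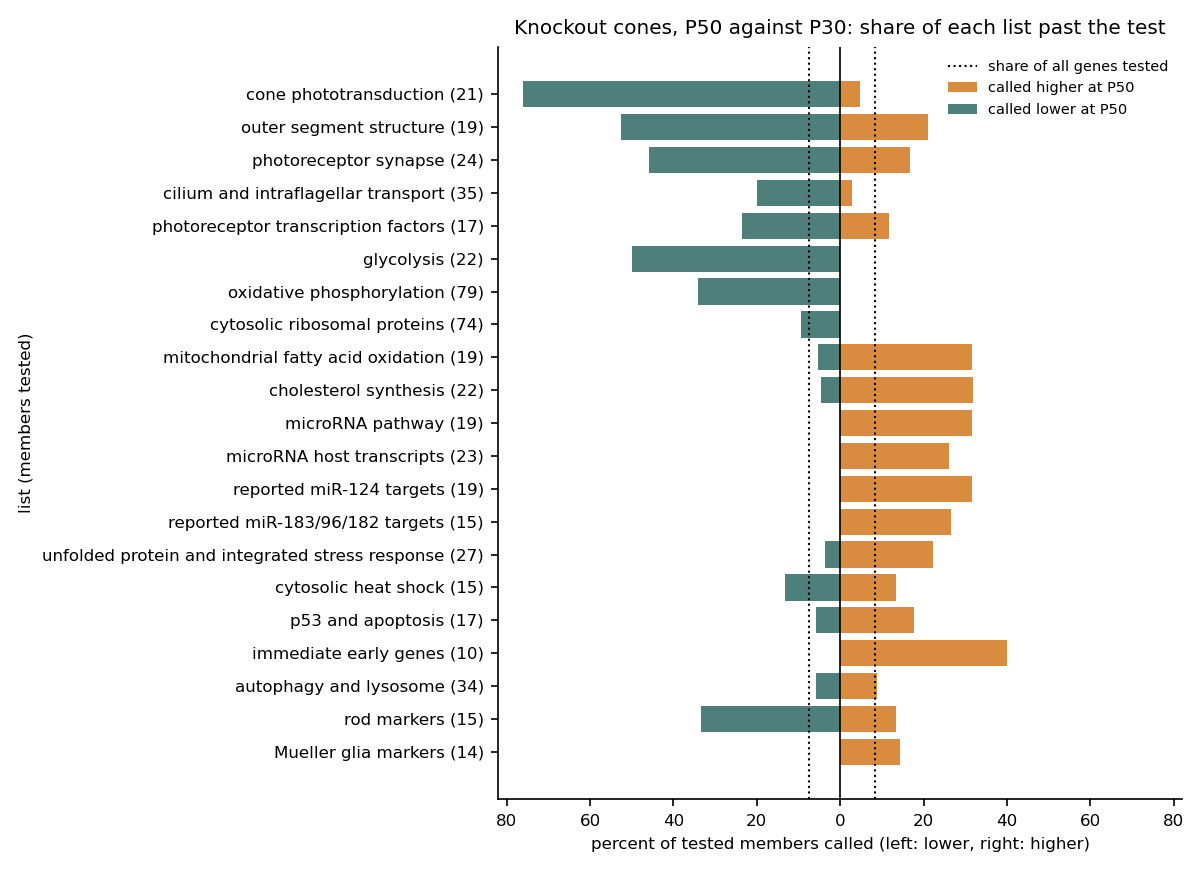
Percent of the tested members of each gene list called higher (orange, to the right) or lower (green, to the left) at P50 than at P30 in KO, with dotted lines at the shares of all genes tested (8.43% and 7.51%). Cone phototransduction has 76.2% of its members called lower, glycolysis 11 of its 22 members and oxidative phosphorylation 34.2%, while the fatty acid oxidation list has 31.6% called higher and 5.3% lower.

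Calls among energy metabolism genes differed in direction by pathway. In glycolysis, 11 of 22 genes were called lower and none higher, beside 7.51% and 8.43% of all genes, with a median of −0.17. Hk2, the hexokinase of photoreceptors that starts the pathway, read 1095 and 1128 CPM at P30, 910 and 933 at P40, and 765 and 786 at P50 (−0.52 (SE 0.042, adjusted p = 3.15e-13)). Hk2 fell in WT too (−0.51 (adjusted p = 4.22e-08)), and the difference of the trends was 0.01 (adjusted p = 0.938). Eno1, an enolase with pseudogene copies that could share its reads, read 491 and 504 CPM at P30, 402 and 389 at P40, and 308 and 333 at P50 (−0.63 (SE 0.055, adjusted p = 2.31e-12)) and exceeded the WT change (−0.52 (adjusted p = 0.000403)). Pgam1, phosphoglycerate mutase, changed by −0.60 (SE 0.081, adjusted p = 2.6e-07), with a difference from WT of −0.54 (adjusted p = 0.0219). Pyruvate kinase, Pkm, dipped at P40, with 2227 and 2316 CPM at P30, 1656 and 1771 at P40, and 1853 and 1856 at P50 (−0.29 (SE 0.035, adjusted p = 1.87e-08)). Lactate dehydrogenase Ldha had means of 915, 754 and 862 CPM and was not called (−0.08 (adjusted p = 0.178)). Over the first step, 13 of the 22 were lower at P40 than at P30 and 1 higher, beside 5.36% and 4.77% of all genes. Over the second, 6 were higher and 5 lower at P50 than at P40, beside 2.86% and 2.26%.

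In oxidative phosphorylation, 27 of 79 genes were called lower and none higher, beside 7.51% and 8.43% of all genes, with a median of −0.23. WT called 13 higher and none lower, beside 5.54% and 4.63%. The loss lay before P40, with 24 lower over the first step, beside 5.36% of all genes. Over the second step none was called in either direction, where 2.26% of all genes were lower and 2.86% higher. Atp5b, a catalytic subunit of ATP synthase, stood at 1282 and 1280 CPM at P30, 1036 and 1072 at P40, and 1071 and 1092 at P50 (−0.24 (SE 0.039, adjusted p = 7.81e-06)), Atp5h of its stalk at 135 and 136 CPM at P30, 99.4 and 95.8 at P40, and 97.4 and 86 at P50 (−0.57 (SE 0.092, adjusted p = 8.76e-06)), and Ndufa10 of complex I at 174 and 195 CPM at P30, 141 and 136 at P40, and 124 and 138 at P50 (−0.49 (SE 0.081, adjusted p = 1.25e-05)). In these 3 genes no P40 or P50 value reached the P30 values. Cox7b of complex IV changed by −0.42 (SE 0.09, adjusted p = 0.000639) in KO and 0.62 (adjusted p = 0.00132) in WT, a difference of −1.01 (adjusted p = 7.3e-05). For 16 of the 79 the KO trend was lower than that of WT and for none higher, beside 4.53% and 4.84% of all genes. With all 20 libraries in the fit, 3 of the 79 were called lower, and Atp5b and Cox7b were not. The 27 became 17 without the first P40 or the first P50 library and 11 without the second P50 library. Cytosolic ribosomal protein genes have pseudogene copies that could share their reads. Of 74, 7 were called lower (9.5%, near the 7.51% of all genes) and none higher, with a median of −0.17, and WT called 20 higher, beside 5.54% of all genes. None of the 7 calls was left with all 20 libraries fitted, and 2 or 3 genes were called lower without the first or the second P50 library. Rpl23 read 111 and 109 CPM at P30, 78.2 and 86.3 at P40, and 82.3 and 82.5 at P50 (−0.42 (SE 0.098, adjusted p = 0.0018)).

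Among genes of mitochondrial fatty acid oxidation more calls were upward. This list was added after the values had been seen. Of 19 genes, 6 were called higher and 1 lower, beside 8.43% and 7.51% of all genes, with a median of 0.32. Acadvl, which starts the oxidation of very long chains (chr11:70010183-70015411, minus strand), read 134 and 129 CPM at P30, 151 and 149.9 at P40, and 230.1 and 228 at P50 (0.80 (SE 0.073, adjusted p = 9.54e-12)), with most of the gain after P40 (0.61, against 0.19 before). Cpt1a, which loads fatty acids for import into mitochondria, stood at 286 and 286 CPM at P30, 337 and 322 at P40, and 412 and 438 at P50 (0.57 (SE 0.057, adjusted p = 8.86e-11)). Hadha, of the trifunctional protein, changed by 0.54 (SE 0.083, adjusted p = 3.26e-06) and Acaa2, the last thiolase, by 0.93 (SE 0.28, adjusted p = 0.018). In WT, Acadvl was at 122 and 103 CPM at P30, 83.8 and 92.7 at P40, and 108 and 97.8 at P50 (−0.13 (adjusted p = 0.516)), and the difference of the trends was called for Acadvl (0.95 (adjusted p = 4.35e-05)) and Cpt1a (0.63 (adjusted p = 0.000394)) among the 19. Etfa, a subunit of the electron transfer flavoprotein, was the 1 that fell (−0.70 (SE 0.2, adjusted p = 0.0131)).

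Of 22 cholesterol synthesis genes, 7 were called higher, 1 lower and 14 neither, beside 8.43% and 7.51% of all genes called, with a median of 0.20. Over the second step 6 were higher, beside 2.86% of all genes, and over the first none. With all 20 libraries fitted, 4 were called higher between P30 and P50. Sc4mol (now Msmo1), a sterol methyl oxidase, read 81.1 and 81.7 CPM at P30, 81.4 and 88.7 at P40, and 147 and 125 at P50 (0.74 (SE 0.097, adjusted p = 1.26e-07)). Insig1, which retains the sterol sensor in the endoplasmic reticulum, read 44.9 and 49.1 CPM at P30, 46.4 and 50.5 at P40, and 78.2 and 68 at P50 (0.63 (SE 0.12, adjusted p = 0.000194)), and Cyp51, a demethylase of the pathway, 131 and 118 CPM at P30, 113 and 112 at P40, and 161 and 161 at P50 (0.37 (SE 0.082, adjusted p = 0.00099)). In these 3 genes both P50 values lay above the other 4. The KO trend was above that of WT for 3 of the 22, among them Sc4mol (0.80 (adjusted p = 0.00409)) and Cyp51 (0.61 (adjusted p = 0.0119)). Ebp, a sterol isomerase, fell (−0.70 (SE 0.19, adjusted p = 0.0066)).

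**Figure D5:**
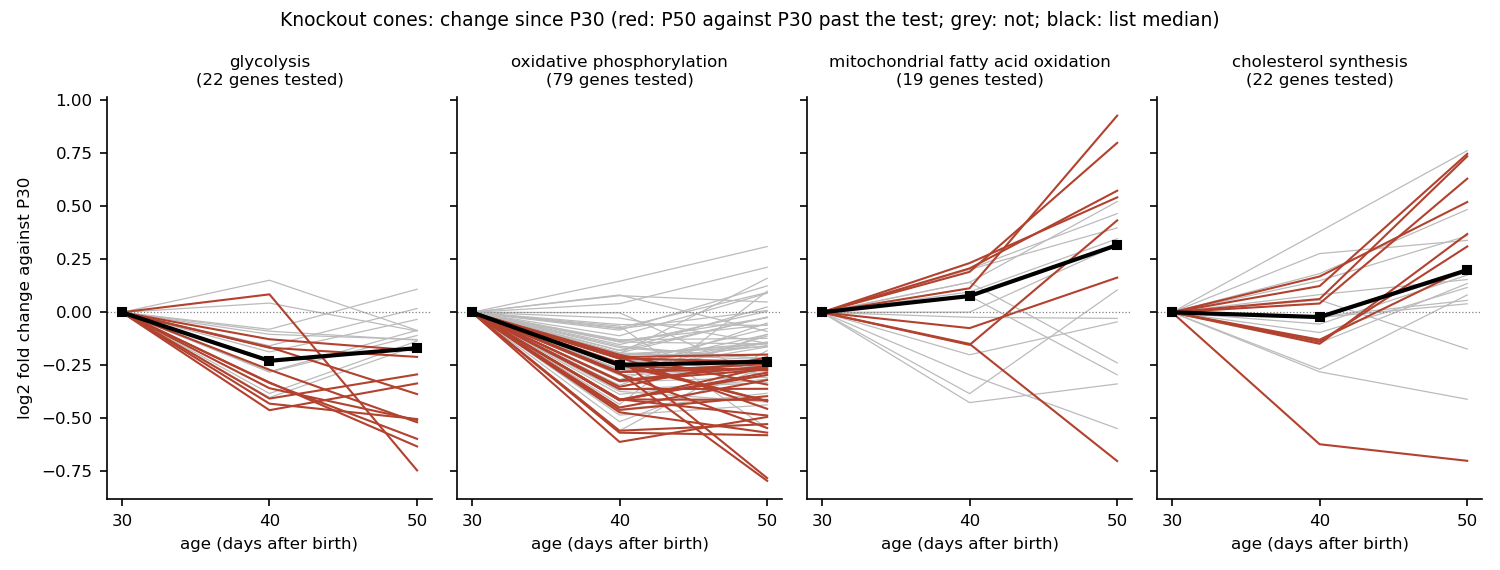
Change since P30 (log2, KO libraries) at each age in days, 1 line per gene, red where the difference between P50 and P30 passed the test, grey where it did not, black for the list median. The oxidative phosphorylation median falls before P40 and ends at −0.23, while the fatty acid oxidation and cholesterol medians end at 0.32 and 0.20, with most of the gain after P40.

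In the microRNA pathway, 6 of 19 genes were called higher and none lower, beside 8.43% and 7.51% of all genes, with a median of 0.07. Tnrc6b and Tnrc6a encode GW182 proteins, which couple Argonaute to mRNA decay. Tnrc6b read 564 and 570.2 CPM at P30, 702 and 720.4 at P40, and 775 and 800.5 at P50 (0.47 (SE 0.045, adjusted p = 3.33e-11)), with a trend above that of WT (0.39 (adjusted p = 0.00354)), and Tnrc6a changed by 0.26 (SE 0.065, adjusted p = 0.00342). Ddx17, a helicase of the Drosha complex, stood at 1317 and 1271 CPM at P30, 1529 and 1545 at P40, and 1615 and 1605 at P50 (0.31 (SE 0.036, adjusted p = 6.9e-09)). The Argonaute gene Eif2c3 (now Ago3) read 66.8 and 64.9 CPM at P30, 99.4 and 103 at P40, and 86 and 96.1 at P50 (0.47 (SE 0.1, adjusted p = 0.000742)) and Zcchc11 (now Tut4), which adds uridines to microRNA precursors, 122 and 136 CPM at P30, 142 and 138 at P40, and 161 and 166 at P50 (0.35 (SE 0.08, adjusted p = 0.00156)). Drosha itself changed by 0.30 (SE 0.099, adjusted p = 0.0284), a call that was lost without the second P30 library, without any 1 of the P40 and P50 libraries or both of P40, with weaker or no filters on low levels, with DESeq2, with all 20 libraries fitted and with age as a continuous term (adjusted p from 0.0536 to 0.132). Dicer1 had means of 252, 272 and 279 CPM (0.15 (adjusted p = 0.101)).

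Transcripts that host microRNA hairpins gave 6 higher and none lower of 23, beside 8.43% and 7.51% of all genes, with a median of 0.12. The 6 became 3 with all 20 libraries fitted or without the second P50 library. Nr6a1, an orphan nuclear receptor gene that hosts hairpins of the miR-181 family, rose between P40 and P50, with 111 and 105 CPM at P30, 116 and 119 at P40, and 168 and 198 at P50 (0.76 (SE 0.085, adjusted p = 1.98e-09)). It fell in WT (−0.50 (adjusted p = 0.01)), a difference of 1.29 (adjusted p = 2.32e-06). A330023F24Rik, the noncoding host of Mir29b-2 and Mir29c, rose before P40, with 2027 and 1977 CPM at P30, 2460 and 2455 at P40, and 2417 and 2323 at P50 (0.24 (SE 0.033, adjusted p = 2.14e-07)). Huwe1, a ubiquitin ligase gene that also hosts hairpins, changed by 0.24 (SE 0.047, adjusted p = 0.000207) and Dleu2 by 0.50 (SE 0.13, adjusted p = 0.00565). Counts named for microRNA genes were low, and 1 of 11 (Mir1892, −0.75 (SE 0.26, adjusted p = 0.0437)) was called, beside 7.51% of all genes called lower. That call was lost with DESeq2, with all 20 libraries, without P40, with age as a continuous term and without any 1 library other than the first of P30 (adjusted p from 0.0639 to 0.269). Without strand information, reads of a hairpin and of its host cannot be told apart.

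The mature sequences (RefSeq, GRCm38.p6, 5 prime to 3 prime) of 9 microRNAs of retina or of these hosts are given because matches to their seeds were counted. Capitals mark the seed, bases 2 to 8. Matches were sought in the longest 3 prime untranslated region of each gene in GENCODE M21. The microRNAs were chosen after the values were seen.
mmu-miR-182-5p: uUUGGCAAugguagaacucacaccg
mmu-miR-96-5p: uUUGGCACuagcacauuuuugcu
mmu-miR-183-5p: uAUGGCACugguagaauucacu
mmu-miR-29b-3p: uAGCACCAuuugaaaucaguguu
mmu-miR-29c-3p: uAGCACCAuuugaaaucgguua
mmu-miR-181a-5p: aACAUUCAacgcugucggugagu
mmu-miR-181b-5p: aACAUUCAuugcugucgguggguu
mmu-miR-204-5p: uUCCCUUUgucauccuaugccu
mmu-miR-9-5p: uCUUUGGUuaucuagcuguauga
The 2 miR-29 arms share 1 seed and the 2 miR-181 arms another, while miR-183, miR-96 and miR-182, which form 1 cluster, have 3 different ones. Among 9975 tested genes with an annotated 3 prime untranslated region, those holding a match to the miR-96 seed (1187 genes) were called higher in 14.8% of cases, against 7.67% of genes without it, and lower in 4.47% against 7.82%. For miR-182 the shares called higher were 13.9% and 7.54%, for miR-183 12.2% and 7.95%, for miR-29 11.5% and 7.85%, for miR-181 12.2% and 7.49%, for miR-204 12.6% and 7.58%, and for miR-9 12.5% and 7.71%. The shares called lower, with and without a match, were 5.3% and 7.8% for miR-182, 6% and 7.64% for miR-183, 6.59% and 7.6% for miR-29, 7.12% and 7.5% for miR-181, 6.17% and 7.67% for miR-9, and for miR-204 in the other order, 7.56% and 7.39%. Regions with a match were also longer, with medians of 2763 to 2873 bases against 1287 to 1428, and the part of length was not tested.

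Reported miR-124 targets included 6 higher and none lower of 19 (median 0.18), and reported targets of the miR-183 cluster 4 higher and none lower of 15 (median 0.18), beside 8.43% higher and 7.51% lower over all genes. Itgb1, integrin beta 1 and a member of both lists, rose, with 64.4 and 44.2 CPM at P30, 76.8 and 72.1 at P40, and 109.8 and 104 at P50 (0.97 (SE 0.12, adjusted p = 2.93e-08)). Sp1, a general transcription factor, read 100.4 and 112 CPM at P30, 149 and 145 at P40, and 198 and 163 at P50 (0.76 (SE 0.086, adjusted p = 5.07e-09)), and Iqgap1, a scaffold of the actin cortex, 54.2 and 44.6 CPM at P30, 67 and 60.4 at P40, and 73.6 and 85.5 at P50 (0.69 (SE 0.12, adjusted p = 3.36e-05)). The KO trend of all 3 exceeded that of WT (0.91 (adjusted p = 0.0118), 0.86 (adjusted p = 0.000869) and 1.26 (adjusted p = 0.0013)). In Itgb1, Sp1 and Iqgap1 both P50 values lay above both P30 values. Clock, a circadian transcription factor, changed by 0.29 (SE 0.059, adjusted p = 0.000312).

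Of 27 genes of the unfolded protein and integrated stress responses, 6 were called higher and 1 lower, beside 8.43% and 7.51% of all genes, with a median of 0.14. The 6 became 1 with all 20 libraries fitted and 3 without the first P50 library. Those that rose included Asns, asparagine synthetase (0.75 (SE 0.13, adjusted p = 4.14e-05)), Sesn2 (0.98 (SE 0.26, adjusted p = 0.00558)), the phosphatase subunit Ppp1r15a (0.52 (SE 0.17, adjusted p = 0.0274)) and Edem1, of endoplasmic reticulum degradation (0.68 (SE 0.18, adjusted p = 0.00688)). Asns stood at 36.9 and 38.9 CPM at P30, 56.2 and 51 at P40, and 71.5 and 56.8 at P50. Ddit3 (CHOP) had means of 65.7, 60 and 73.2 CPM (0.15 (adjusted p = 0.428)) and the chaperone Hspa5 (BiP) 1084, 1066 and 1026 CPM (−0.08 (adjusted p = 0.173)). Among 15 heat shock genes, 2 were called higher and 2 lower, a share of 13.3% each way beside 8.43% and 7.51% of all genes. Hsf1, the regulator of the heat shock response, read 14.3 and 17.1 CPM at P30, 28.1 and 22.1 at P40, and 30.1 and 27.6 at P50 (0.87 (SE 0.19, adjusted p = 0.000836)), and Hsph1 248 and 216 CPM at P30, 187 and 221 at P40, and 313 and 284 at P50 (0.36 (SE 0.072, adjusted p = 0.000262)).

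Of 17 p53 and apoptosis genes, 3 were called higher and 1 lower, beside 8.43% and 7.51% of all genes. Zmat3, a p53 target, rose, with 19.3 and 24.3 CPM at P30, 34.5 and 42.2 at P40, and 48.6 and 48.3 at P50 (1.15 (SE 0.16, adjusted p = 3.5e-07)) and Trp53inp1 changed by 0.52 (SE 0.079, adjusted p = 3.03e-06). For both, the trend was above that of WT (1.29 (adjusted p = 0.0126) and 0.53 (adjusted p = 0.0141)). Of 10 immediate early genes, 4 were called higher and none lower, beside 8.43% and 7.51% of all genes, with a median of 0.36. WT called 3 lower, beside 4.63% of all genes. The 4 became 2 with all 20 libraries fitted or without the second P50 library. Egr1 stood at 25.9 and 21 CPM at P30, 17.1 and 24.1 at P40, and 63.2 and 65.5 at P50, so that the gain lay after P40 (1.65 (adjusted p = 2.28e-10)). In WT it was at 15.6 and 17.7 CPM at P30, 14.1 and 13.1 at P40, and 7.66 and 5.76 at P50 (−1.30 (adjusted p = 0.00529)). Btg2, which restrains cell division, changed by 0.33 (SE 0.055, adjusted p = 1.94e-05) and Fos by −0.02 (adjusted p = 0.96). Of 34 autophagy and lysosome genes, 3 rose (8.8%) and 2 fell (5.9%), near the 8.43% and 7.51% of all genes. Gabarap, which coats autophagosome membranes, read 96.7 and 104 CPM at P30, 117 and 109 at P40, and 165 and 155 at P50 (0.67 (SE 0.086, adjusted p = 7.37e-08)), and Npc2, a lysosomal cholesterol carrier, changed by 0.70 (SE 0.13, adjusted p = 0.000112).

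The first step held more calls than the second. From P30 to P40, 494 genes (4.77%) were called higher and 556 (5.36%) lower. From P40 to P50, 296 (2.86%) were higher and 234 (2.26%) lower. Both steps use the P40 libraries. Without the first or the second of these, the first step had 151 higher and 205 lower, or 199 and 240, and the second 114 and 97, or 132 and 103. Without a P50 library the second step had 152 and 119, or 174 and 165. The counts of the first step without a filter on low levels were 409 and 821. The largest gains of the first step were crystallins of the lens marker list, which are major proteins of the lens. The source of these reads was not tested. Cryaa stood at 0.441 and 0 CPM at P30, 83.8 and 92.5 at P40, and 0.197 and 0.266 at P50, Crybb2 at 0.551 and 0.356 CPM at P30, 46.6 and 51.9 at P40, and 0.197 and 0.532 at P50 and Cryba1 at 0.551 and 0 CPM at P30, 51.5 and 52.4 at P40, and 0.197 and 0.799 at P50. The 5 of 18 lens markers that were tested passed the filter on low levels only through the P40 libraries, so their calls were fixed by the filter and their values are a description. Without the lens markers and small structured RNAs, the first step had 491 higher and 557 lower genes.

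The lower genes of smallest p over the first step were noncoding RNAs and a rod gene. Rpph1, the RNA of ribonuclease P, read 3813 and 4929 CPM at P30, 2443 and 2522 at P40, and 3876 and 4057 at P50, with −0.82 (SE 0.05, adjusted p = 4.32e-17) over the first step and 0.68 (SE 0.05, adjusted p = 2.26e-14) over the second. Rmrp, the RNA of ribonuclease MRP, read 1854 and 2635 CPM at P30, 1266 and 1345 at P40, and 1935 and 1885 at P50 (−0.78 (adjusted p = 1.3e-12) and 0.55 (adjusted p = 3.42e-08)). In both, the 2 P30 libraries lay apart from each other and the P40 libraries were lowest. Of the 26 small structured RNAs tested, a list added after the values were seen, 17 were lower over the first step and none higher, beside 5.36% and 4.77% of all genes. Snora74a lies within Snhg4 and Snord22 within Snhg1, so the reads of guest and host cannot be told apart. Malat1, a nuclear long noncoding RNA, took 6.14% to 7.49% of all KO counts and also dipped, with 69750 and 69400 CPM at P30, 60430 and 61690 at P40, and 75330 and 73630 at P50. Its first-step change was −0.19 (SE 0.013, adjusted p = 9.26e-16), a call lost when all 20 libraries were fitted, and its second 0.29 (SE 0.013, adjusted p = 2.23e-22). Gngt1, the gamma subunit of rod transducin, stood at 1998 and 2001 CPM at P30, 1379 and 1357 at P40, and 1544 and 1409 at P50 (−0.55 (SE 0.038, adjusted p = 3.63e-15) for the first step).

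Over the second step, Plekhb1, a membrane protein of photoreceptors, rose, with 2184 and 2281 CPM at P30, 2112 and 2053 at P40, and 2813 and 2861 at P50 (0.45 (SE 0.033, adjusted p = 2.2e-14)), and Mbnl2, a splicing regulator, with 619 and 609 CPM at P30, 558 and 516 at P40, and 754 and 754 at P50 (0.49 (SE 0.047, adjusted p = 1.41e-10)). Akap11, an anchor of protein kinase A, read 2519 and 2495 CPM at P30, 2222 and 2250 at P40, and 2831 and 2716 at P50 (0.31 (SE 0.032, adjusted p = 6.65e-10)). In all 3 genes P40 was the lowest age and P50 the highest. Pcdh15, a protocadherin of photoreceptors and hair cells, peaked at P40, with 1180 and 1197 CPM at P30, 1668 and 1670 at P40, and 1183 and 1234 at P50. It changed by 0.49 (SE 0.037, adjusted p = 8.36e-14) over the first step and by −0.47 (SE 0.038, adjusted p = 4.57e-13) over the second, with a trend of 0.02 (adjusted p = 0.717).

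At the middle age, 195 genes (1.88%) lay above the mean of P30 and P50 and 232 (2.24%) below it. These fell to 43 and 66, or 60 and 96, without 1 of the P40 libraries and to 117 and 157 without the first P50 library, and without a filter on low levels they were 149 and 338. Nptx1, a pentraxin that clusters glutamate receptors, read 392 and 404 CPM at P30, 636 and 602 at P40, and 548 and 539 at P50 (deviation 0.41 (SE 0.042, adjusted p = 9.01e-10)). Cit, citron kinase, stood at 118 and 102 CPM at P30, 189 and 196 at P40, and 136 and 135 at P50 (0.66 (SE 0.068, adjusted p = 1.41e-09)), Tmtc1, an endoplasmic reticulum mannosyltransferase, at 38 and 31.8 CPM at P30, 77.4 and 78 at P40, and 41.7 and 44.1 at P50 (1.00 (SE 0.11, adjusted p = 2.42e-09)), and Hr, a corepressor of nuclear receptors, at 149 and 149.9 CPM at P30, 197 and 194 at P40, and 120.1 and 127 at P50 (0.52 (SE 0.064, adjusted p = 7.68e-08)). In each the P40 values lay above the other 4. Below the line lay Krt18, a keratin, with 222 and 228 CPM at P30, 147 and 135 at P40, and 196 and 192 at P50 (−0.56 (SE 0.063, adjusted p = 8.37e-09)), and Snord22 (−0.62 (SE 0.066, adjusted p = 2.58e-09)) with its host Snhg1 (−0.57 (SE 0.063, adjusted p = 8.26e-09)).

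The KO course differed from the WT course for 502 genes with a higher trend in KO (4.84%) and 470 with a lower one (4.53%), out of the same 10366. WT alone called 574 higher (5.54%) and 480 lower (4.63%). The difference had fewer calls without single libraries, with 290 and 318 without the second KO library at P30, 297 and 309 or 245 and 265 without a KO library at P50, and 331 and 358 or 316 and 307 without a WT library at P50. It had more, 785 and 852, without the second WT library at P30. With weaker filters on low levels, which shift the median over all genes to −0.15 and −0.16, the counts were 689 and 1113, or 819 and 1248. These were not all the same genes. Of the 502 with a higher KO trend, 236 or 239 kept their call, while all 470 with a lower one did. WT libraries were shallower. Reads of 1433 receptor genes of the olfactory and vomeronasal systems, silent in retina, took 0.164% and 0.155% of WT counts at P30. At P40 they took 0.147% and 0.152%, and at P50 0.0571% and 0.0599%. In KO their share rose with age, with 0.0165% and 0.0158% at P30, 0.0326% and 0.0341% at P40, and 0.0388% and 0.0357% at P50. The part of these reads in this result and in the KO trends was not tested.

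Rod genes separated the genotypes. Of 15, 14 rose in WT and none fell (median 0.80), beside 5.54% and 4.63% of all genes. In KO 2 rose and 5 fell (median −0.14), beside 8.43% and 7.51%, and the difference of the trends was called for 14, all lower in KO, beside 4.53%. Gnb1, the rod transducin beta subunit, rose in both, by 0.22 in KO and 1.27 in WT (−1.03 (SE 0.082, adjusted p = 1.72e-10)), and phosducin, Pdc, which binds transducin subunits in both photoreceptor types, read 5217 and 5363 CPM at P30, 4348 and 4500 at P40, and 4598 and 4305 at P50 in KO (−0.25) and gained 0.46 in WT (−0.69 (SE 0.054, adjusted p = 1.4e-10)). The KO trend of Pdc was not called when all 20 libraries were fitted, and that of Gnb1 not with age as a continuous term. Rod arrestin, Sag, read 4179 and 4393 CPM at P30, 3467 and 3457 at P40, and 2902 and 2867 at P50 in KO (−0.57 (SE 0.029, adjusted p = 5.4e-20)). Sag had the highest mean level of the 15 in KO, so its fall is a large part of the fall of the rod marker sum. In bulk RNA, Sag reads from rods and from cones cannot be told apart. Pde6a, of the rod phosphodiesterase, rose in KO (0.36 (SE 0.038, adjusted p = 5.99e-10)) by less than in WT (0.82). Mueller glia markers rose in WT for 10 of 14 tested, beside 5.54% of all genes, and in KO for 2, beside 8.43%, with a lower KO trend for 5, beside 4.53%. Glul, glutamine synthetase, had KO means of 366, 385 and 375 CPM (0.03 (adjusted p = 0.781)) and a WT trend of 0.89 (adjusted p = 6.25e-10). With rod and Mueller glia markers left out, 495 genes had a higher and 451 a lower trend in KO.

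Other genes moved in opposite directions. Ttn, the giant muscle protein titin, rose in KO, with 37.5 and 38.5 CPM at P30, 65.8 and 81 at P40, and 70.3 and 71.5 at P50 (0.90 (SE 0.12, adjusted p = 3.97e-07)) and fell in WT, with 269 and 226 CPM at P30, 225 and 284 at P40, and 112 and 106 at P50. Kcnq1ot1, an antisense noncoding RNA of an imprinted region, read 288 and 291 CPM at P30, 357 and 366 at P40, and 404 and 404 at P50 in KO (0.48) and changed by −0.31 in WT. Rnpc3, of the minor spliceosome, changed by 0.49 and −0.26. The share of receptor reads given above also rose in KO between P30 and P50 and fell in WT. Its part in the trends of Ttn, Kcnq1ot1 and Rnpc3 was not tested. Plcz1, a phospholipase C best known from sperm, fell in KO, with 105 and 104 CPM at P30, 45.6 and 55.4 at P40, and 43.1 and 36.3 at P50 (−1.41 (SE 0.12, adjusted p = 2.59e-12)) and rose in WT, with 122 and 103 CPM at P30, 117 and 128 at P40, and 153 and 168 at P50 (0.51 (adjusted p = 0.0102)). For Ttn, Kcnq1ot1 and Plcz1 the P30 and P50 values of a genotype did not overlap. Xist fell in KO (−0.99 (SE 0.047, adjusted p = 5.07e-21)), while WT stood at 528 and 635 CPM at P30, 12.9 and 13.4 at P40, and 919.6 and 931 at P50, with the WT libraries at P40 far below the rest. All 4 Y-linked genes tested rose in KO, by 0.92 to 1.78 on the log2 scale, and the proportions of the sexes cannot be told apart from age. Without the genes of X and Y, 832 genes were higher and 753 lower between P30 and P50 in KO, and 485 and 468 had a trend that differed from WT.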

How the data were processed

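The deposited files hold whole-number counts per gene symbol and library, which the authors deposited unscaled. Per the labels' protocols, RNA of sorted cones was extracted with Trizol or PicoPure, libraries were made from 150 ng of it with the ScriptSeq Complete Low Input kit, and 4 libraries shared a HiSeq 2000 lane. Which library had which extraction or lane is not given. CASAVA 1.8.0 and the mm10 build (GRCm38) are named per the submitters' processing notes. For the aligner, the counter and the strand setting, the sources used here give nothing.

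The 6 KO libraries were fitted with edgeR 4.0.16 (quasi-likelihood test, TMM scaling, 1 mean per age, R 4.3.3, limma 3.58.1), over named genes whose mean CPM reached 5. Tested genes held 98.6% to 99.1% of counts, and 2 unnamed entries with 3 counts were left out. The 12 KO and WT libraries of P30 to P50 were fitted together for the difference of the trends, the WT trend and WT levels. The biological coefficients of variation were 0.0784 and 0.0967. Adjustment was by Benjamini-Hochberg over all 10366 genes, and a gene was called at 0.05. Levels are TMM-scaled CPM, marker sums CPM of the library total. The variance between the 2 libraries of an age was 2.29 to 5.13 times the sampling variance, so none is a copy. The fit was tested on simulated counts.

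Of 23077 symbols, 20907 matched GENCODE M21 directly, 1749 through a synonym and 421 not at all. Sequences are from RefSeq (GRCm38.p6), untranslated regions from GENCODE M21. Genes were named by rule: for the trend, among called genes, the 12 of smallest p in each direction with P30 and P50 libraries apart and P40 between them, then the first 4 each way for each step and the middle age, the first 5 each way for the difference from WT, and up to 4 members per list. Uncharacterized loci (Rik, Gm and the like) were passed over outside the lists. A few genes that the rule named are not reported here. Further list members were named after their values were seen. The genes, lists and tests were chosen with earlier results of these data known. The lists of fatty acid oxidation, small structured RNAs and snoRNA hosts were added after the values were seen.

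Alternatives were RLE factors, filterByExpr, no filter, a minimum mean CPM of 20, DESeq2 1.42.0, the replicate number as a block, all 20 libraries, each library left out, P40 left out and age as a continuous term. Leaving out X and Y genes, lens markers with small RNAs, or rod and Mueller glia markers was added after the data were seen. Figures were drawn with matplotlib 3.10.9 and pandas 2.3.3 (Python 3.11.15).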

Additional observations from a re-analysis of the deposited data

Results flagged for a closer look

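The 9 genes below were among the first 5 each way, by p, whose change from P30 to P50 differed between KO and WT in edgeR's test of the difference of the trends and that had not been named before. The difference was 2.11 on the log2 scale for Ttn (adjusted p = 4.36e-10), 1.45 for Olfr1372-ps1 (adjusted p = 1.13e-07), 3.54 for Ugt1a6a (adjusted p = 2.89e-07), 0.81 for Kcnq1ot1 (adjusted p = 1.08e-06) and 0.77 for Rnpc3 (adjusted p = 2.14e-06). In these 5 genes KO rose and WT fell. The share of reads of the silent receptor genes moved in the same directions between P30 and P50, and its part was not tested. Ugt1a6a read 4.41 and 2.14 CPM at P30, 14.5 and 14.7 at P40, and 13.6 and 17.6 at P50 in KO, and its exons are shared with other members of the Ugt1a family, so its counts are uncertain. Its P30 values lay below the 5 CPM of the filter on low levels. It passed that filter only through the P40 and P50 libraries, where it was high, so its rise in KO is a description. Olfr1372-ps1, a receptor pseudogene, read 186 and 165 CPM at P30, 256 and 260.2 at P40, and 247 and 254 at P50 in KO and 101 and 123 CPM at P30, 62.1 and 72.4 at P40, and 65.1 and 53.8 at P50 in WT.

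A lower trend in KO was found for Pdc at −0.69 (adjusted p = 1.4e-10), Gnb1 at −1.03 (adjusted p = 1.72e-10), Plcz1 at −1.89 (adjusted p = 8.76e-09) and Rcvrn at −0.75 (adjusted p = 1.82e-08). Of these, Pdc, Plcz1 and Rcvrn fell in KO and rose in WT, and Gnb1 rose in both. Rcvrn stood at 872 and 879.9 CPM at P30, 627 and 627 at P40, and 583 and 597 at P50 in KO and at 755 and 758 CPM at P30, 839 and 857 at P40, and 881 and 858 at P50 in WT. The rod marker sum moved the same way between the genotypes, and its part in the 4 results was not tested.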

How the results depend on the processing

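Among 206 gene results under RLE factors none lost its call. With all 20 libraries fitted, 37 lost theirs and 169 were unchanged. Age as a continuous term was fitted for the trend only, where 33 were lost and 139 unchanged. The counts were 10 and 192 with DESeq2, 4 and 201 without a filter, and 2 and 204 with filterByExpr. With all 20 libraries the calls (higher and lower) were 400 and 254 for the trend, 134 and 98 for the first step, 52 and 55 for the second, 32 and 31 for the middle age, and 306 lower for the difference from WT. With age as a continuous term the trend had 470 and 412. DESeq2 called 306 higher over the first step and 127 at the middle age. It gave no adjusted p for 3819, 4823 and 5627 genes of the steps and the middle age. For the difference from WT, filterByExpr called 1113 lower, and no filter 819 higher and 1248 lower. Of the 502 genes called higher in the main fit, 236 kept that call with filterByExpr and 239 without a filter. Without a filter the second step had 279 and 219, and with filterByExpr the first had 419 and 696 and the middle age 142 and 295.

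Leaving out 1 library gave 560 to 932 higher and 493 to 821 lower for the trend, 151 to 595 and 205 to 605 for the first step, 114 to 408 and 97 to 310 for the second, 43 to 262 and 66 to 314 for the middle age, and 245 to 785 and 265 to 852 for the difference from WT. An age left with 1 library was assumed to vary like the others. The trends of Rpph1, Rmrp and Snhg1 turned to 0.055, 0.040 and 0.027 without the second P30 library and were −0.31, −0.47 and −0.41 without the first. The causes were not tested. The replicate number does not pair the libraries (correlations −0.0151, 0.000825 and −0.0166), and with it as a replicate block the trend had 902 and 797 calls, the steps 529 and 570, and 295 and 251, the middle age 204 and 233, and the difference from WT 469 and 442, with no named call lost. With 2 libraries an age, small changes of genes at low levels may not be detectable at this depth.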

Other observations

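Of the 14 bipolar cell markers, 4 were called lower between P30 and P50 in KO and none higher by edgeR, beside 7.51% and 8.43% of all genes. Besides Cabp5 these were Nyx, nyctalopin of the ON pathway (−1.54 (SE 0.33, adjusted p = 0.000543)), the GABA receptor subunit Gabrr1 (−0.86 (SE 0.21, adjusted p = 0.00342)) and Car8 (−0.68 (SE 0.18, adjusted p = 0.00636)). The defining markers Prkca and Grm6 were not called, with changes of −0.10 and −0.36. Nefh, the heavy neurofilament of ganglion cells and other neurons, rose, with 84.3 and 79.5 CPM at P30, 94.2 and 92.5 at P40, and 112 and 109.5 at P50 (0.44 (SE 0.096, adjusted p = 0.000828)). Clu, clusterin, a secreted chaperone of the Mueller glia list, rose, with 306 and 341 CPM at P30, 386 and 351 at P40, and 427 and 469 at P50 (0.47 (SE 0.06, adjusted p = 5.39e-08)), and its trend did not differ from that of WT past the threshold (0.37 (adjusted p = 0.0983)). The 2 rising members of the autophagy list with the smallest p, Gabarap and Npc2, both had a trend above that of WT (0.85 (adjusted p = 0.0124) and 0.86 (adjusted p = 0.0372)).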
